A study of Mus musculus with 2 samples.

Results

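The scavenger and efferocytosis receptors described here were Mrc1, Mertk, Cd163, Axl, Timd4, Marco, Msr1, Stab1 and Cd36, with Gas6, the ligand of Mertk and Axl. These 10 genes, chosen by name from the 56941 features of the count matrices, were followed in macrophages, Kupffer cells, endothelial cells and dendritic cells of mouse liver metastases. Single-cell RNA sequencing had been performed on CD45+ cells that were enriched with magnetic beads from liver lesions of young adult C57BL/6 mice, after injection into the spleen of MC38-LM3b, a line selected from mouse MC38 colorectal cancer cells for its spread to the liver. The tumor cells carried a scrambled hairpin in the Ctrl group (shScramble) or a hairpin against SLAMF3, the product of Ly9 and a SLAM-family receptor, in the KD group (shSLAMF3, hairpin #2). All tumor cells were labelled with GFP and luciferase, the hairpin was in the tumor cells and not in the host cells that were sequenced, and a single hairpin was used. The lesions of 3 mice were pooled into 1 library for each group, so no test was possible. The intervals given are 95% intervals for counting error and do not cover the difference between mice or between libraries.

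Efferocytosis is the uptake of dying cells. Phosphatidylserine on the dying cell is bound directly by Timd4 and Stab1, or through the bridging ligand Gas6 by the receptor tyrosine kinases Mertk and Axl. Scavenger receptors take up modified lipoproteins, polyanions, glycoproteins and cell debris. Msr1 and Marco are class A scavenger receptors, Cd36 is a class B receptor that also takes up fatty acids, Cd163 clears haptoglobin-bound hemoglobin, and Mrc1 is the mannose receptor. In liver, Timd4, Marco and Cd163 are known from resident macrophages such as Kupffer cells, and Mrc1 and Stab1 from the sinusoidal endothelium.

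The Ctrl library held 10416 cell barcodes and the KD library 10943, with totals of 67207234 and 64444715 UMIs (molecular tags, each standing for 1 captured RNA molecule). After filtering, 9814 Ctrl and 10185 KD cells remained, and 24 of their barcodes occurred in both libraries. Ly9 had 1349 UMIs (1278 to 1423) in Ctrl and 1157 (1091 to 1226) in KD over these cells, or 21.0 and 18.8 CPM (UMIs scaled to 1000000 UMIs of the summed profile), mostly in host cells that do not carry the hairpin. The tumor-like or fibroblast-like cells, which may include hairpin carriers, had 12 Ly9 UMIs in 161 Ctrl cells (5.91 CPM) and 7 in 95 KD cells (5.36 CPM), too few to check the knockdown. The macrophage class, monocytes included, held 4090 Ctrl and 3099 KD cells. Kupffer cells numbered 47 and 80, endothelial cells 148 and 645, conventional dendritic cells (cDCs) 420 and 586, and plasmacytoid dendritic cells (pDCs) 84 and 73.

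The class names were checked against marker genes that did not include the 10 genes. In the Kupffer class, Clec4f reached 1279 CPM in Ctrl and 1465 CPM in KD, against at most 33.8 CPM in macrophages, endothelial cells and cDCs. RNA of other cells was also counted in these classes. Cells with at least 3 UMIs of genes exclusive to another class made up 40.4% of Ctrl and 50% of KD Kupffer cells, 6.76% and 9.92% of endothelial cells, 4.91% and 9.49% of macrophages, and 2.38% and 6.14% of cDCs. The 10 granulocyte markers together were at 121 CPM in Ctrl and 2870 CPM in KD Kupffer cells, at 113 and 1500 CPM in endothelial cells, at 335 and 2128 CPM in macrophages, and at 86.2 and 628 CPM in cDCs. They were therefore higher in KD in each class compared below, and their part in the results was not tested.

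Each gene had its own distribution over the classes. Mrc1 was highest in endothelial cells, with 1140.4 CPM in Ctrl and 1367 CPM in KD. It followed in Kupffer cells with 541 and 701 CPM, and in macrophages with 59.8 and 161 CPM. Stab1 (678 and 734 CPM), Cd36 (575 and 676 CPM) and Gas6 (120.3 and 133 CPM) were likewise highest in endothelial cells. The receptor Mertk and its ligand thus had their highest levels in different cells, since Mertk was highest in Kupffer cells at 465 and 639 CPM. Endothelial cells, with the most Gas6, came next for Mertk at 242 and 390 CPM. Kupffer cells also led for Axl (339 and 325 CPM), Timd4 (441 and 407 CPM), Marco (546 and 1259 CPM) and Cd163 (157 and 206 CPM). Msr1 differed in its order between the libraries. It was highest in Ctrl in endothelial cells (379 CPM, 344 to 417) and in KD in Kupffer cells (497 CPM, 442 to 555), and the macrophage level was 267 CPM in both libraries.

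**Figure D1:**
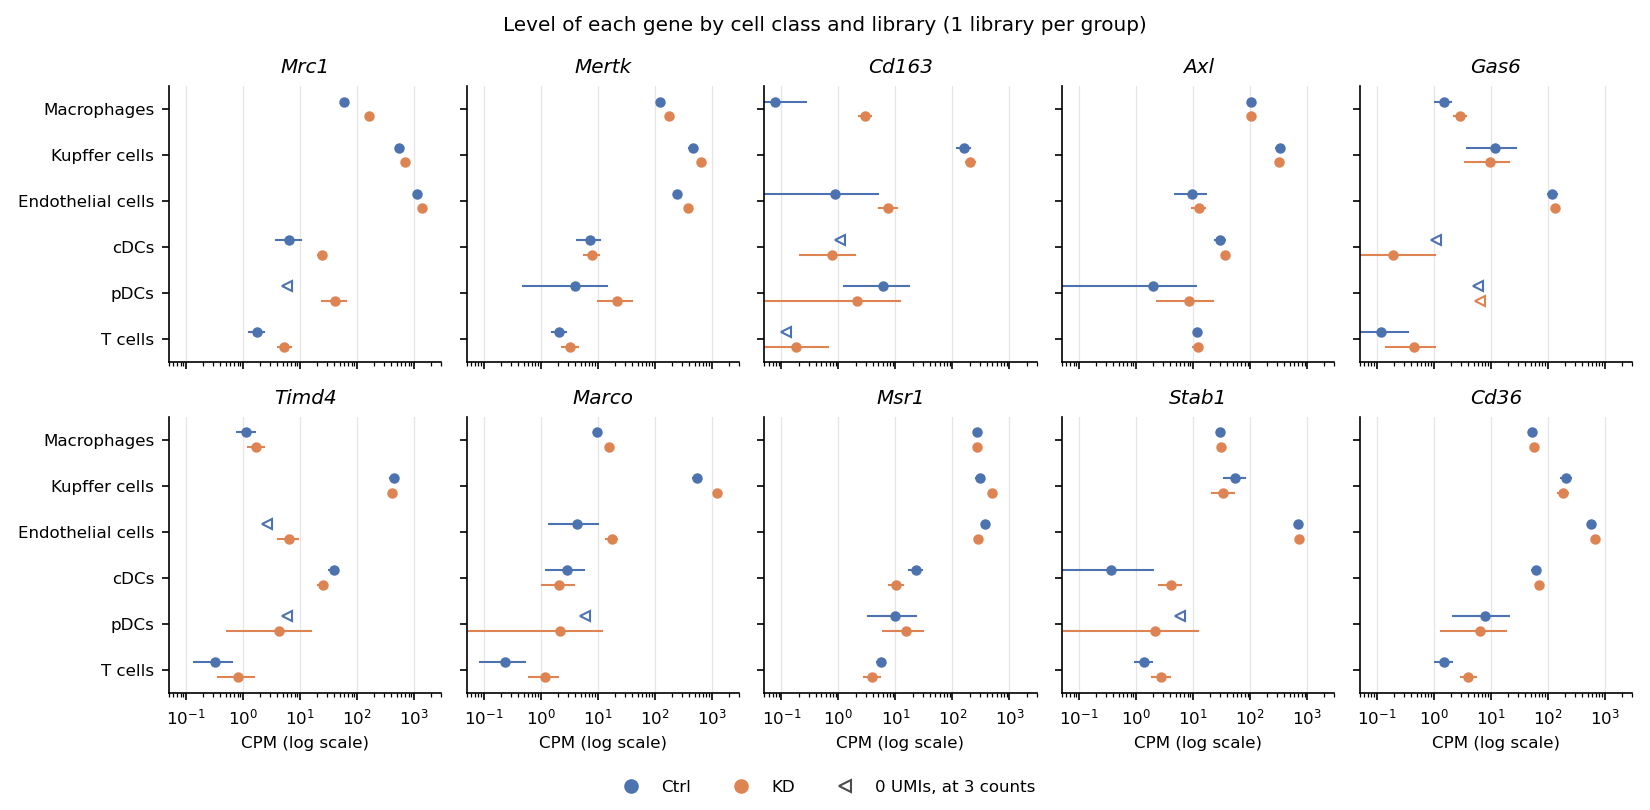
Level of the 10 genes (CPM on a log axis) by cell class, in Ctrl (blue) and KD (orange), with lines for 95% Poisson intervals; an open triangle marks a library with 0 UMIs, placed at the level of 3 counts. T cells are shown as a class that should lack these genes. Mrc1, Stab1, Cd36 and Gas6 are highest in endothelial cells, and Timd4, Marco and Cd163 in Kupffer cells.

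A rare class did not always hold the larger part of a transcript. Macrophages held 82.2% of all Mertk UMIs of the kept cells in Ctrl and 64.5% in KD, 77.2% and 76.0% of Axl, and 87.1% and 78.0% of Msr1, although the level in CPM was higher in Kupffer cells for Mertk and Axl. The endothelial share of Mrc1 UMIs was 40.3% in Ctrl and 55.5% in KD, that of Stab1 47.2% and 77.8%, and that of Cd36 27.3% and 57.7%. Endothelial cells made up 1.51% of the kept Ctrl cells and 6.33% of the kept KD cells. For Timd4 the cells with the larger parts were Kupffer cells (55.7% and 52.6%) and cDCs (32.3% and 27.3%).

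T cells served as a background class for free RNA. There, Mrc1 stood at 1.75 CPM in Ctrl and 5.29 CPM in KD, Cd36 at 1.51 and 4.03 CPM, Marco at 0.239 and 1.17 CPM, and Stab1 at 1.39 and 2.78 CPM. Mertk was at 2.11 and 3.32 CPM there, a log2 ratio of 0.65 (0.01 to 1.29), beside 0.51 in macrophages at levels of 123 and 176 CPM. These 5 genes were thus higher in KD also in a class that should not express them, as were Timd4 (8 and 9 UMIs) and Gas6 (3 and 5 UMIs) at intervals that reached across 0. Msr1 was lower in KD T cells (5.57 and 3.94 CPM), and Axl was similar at 11.6 and 12.0 CPM. B cells held Cd36 at 25.9 and 22.6 CPM, above its level in T cells. Msr1 stood at 14.3 and 6.90 CPM in granulocytes and at 11.1 and 8.47 CPM in B cells, also above T cells. In KD, Mrc1 stood at 7.45 CPM in granulocytes and 8.87 CPM in B cells. T cells thus do not give an upper limit for free RNA.

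Across the macrophage class, 2 of the 10 genes were at least 2-fold higher in KD than in Ctrl (Mrc1 and Cd163), where 2.59% of 13399 genes with at least 50 UMIs over both libraries were, and 0 were at least 2-fold lower, where 2.9% of genes were. In Kupffer cells 8 of the 10 genes passed the minimum of 50 UMIs, and Marco was at least 2-fold higher, against 2.47% of 3362 genes, while 0 were lower, against 2.62%. In endothelial cells the same gene was past 2-fold upward among 8 with enough UMIs, against 2.97% of 9053 genes, and 0 were past it downward, against 2.37%. Cd163 in macrophages (2 and 71 UMIs) and Marco in endothelial cells (5 and 76 UMIs) passed the minimum only through KD. At such Ctrl counts a gene that passes is bound to count as higher, so these calls carry no weight of their own. In cDCs, where 6 passed, Mrc1 was past 2-fold upward, against 1.82% of 8969 genes, and Msr1 downward, against 1.15%. The median log2 ratio of the genes that passed was 0.54 in macrophages, 0.38 in Kupffer cells, 0.25 in endothelial cells and 0.17 in cDCs, beside medians of all genes of -0.03, -0.02, -0.02 and -0.00. The macrophage median includes Cd163 and the endothelial median Marco, which passed only through KD. In macrophages it also includes Gas6, Marco and Timd4, whose counts were low or gathered in few cells. The medians are thus not read as a shift of the whole set.

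**Figure D2:**
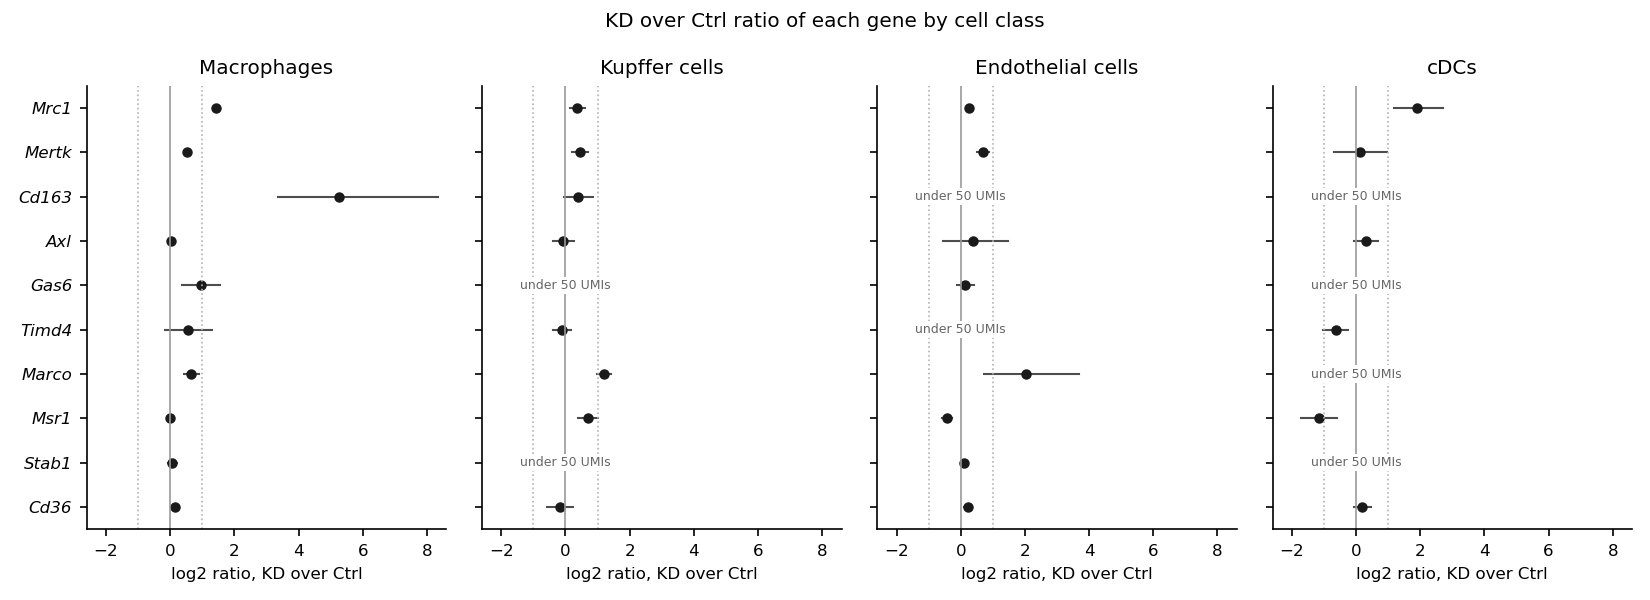
Log2 ratio of CPM, KD over Ctrl, for the 10 genes in 4 cell classes (points) with 95% conditional binomial intervals (lines); dotted lines mark 2-fold, and genes with under 50 UMIs in a class are not drawn. Mrc1 and Cd163 lie beyond 2-fold in macrophages, Marco in Kupffer and endothelial cells, and Mrc1 and Msr1 in opposite directions in cDCs.

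In macrophages the mannose receptor Mrc1 (ENSMUSG00000026712) was the receptor with the clearest difference. It had 1573 UMIs in Ctrl (59.8 CPM, 56.8 to 62.8) and 3910 UMIs in KD (161 CPM, 156 to 166). The KD level was 2.69-fold the Ctrl level, a log2 ratio of 1.43 (1.34 to 1.51). UMIs of Mrc1 were found in 706 of 4090 Ctrl cells and 1105 of 3099 KD cells, and the 5 cells with the most held 4.26% and 4.30% of its UMIs, so the level did not come from a few cells. Cells with at least 5 Mrc1 UMIs numbered 77 in Ctrl and 257 in KD.

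The macrophage class was divided into 11 sub-clusters without the use of the 10 genes, and 5 of them had at least 50 cells in each library. Mrc1 was higher in KD in each of these 5, with log2 ratios from 1.16 to 1.86 and every interval above 0. In the C1q-high TAM-like sub-cluster (tumor-associated macrophages, 1017 Ctrl and 1085 KD cells) it stood at 71.7 CPM in Ctrl and 199 CPM in KD. In the Inflammatory TAM-like sub-cluster (1179 and 308 cells), which was marked by Nos2 and Il1b, it stood at 37.2 and 91.3 CPM. The Cycling sub-cluster (470 and 110 cells) reached 86.3 and 305 CPM. Monocyte-like cells (390 and 474 cells) had 3 and 17 Mrc1 UMIs, or 1.38 and 5.01 CPM, which is at the level seen in T cells. Over these 5 sub-clusters (3946 Ctrl and 2298 KD cells), with KD weighted to the makeup of Ctrl, the log2 ratio of Mrc1 was 1.49. The remaining sub-clusters were left out of this weighting. Within the 5, the difference was thus as large at equal makeup.

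**Figure D3:**
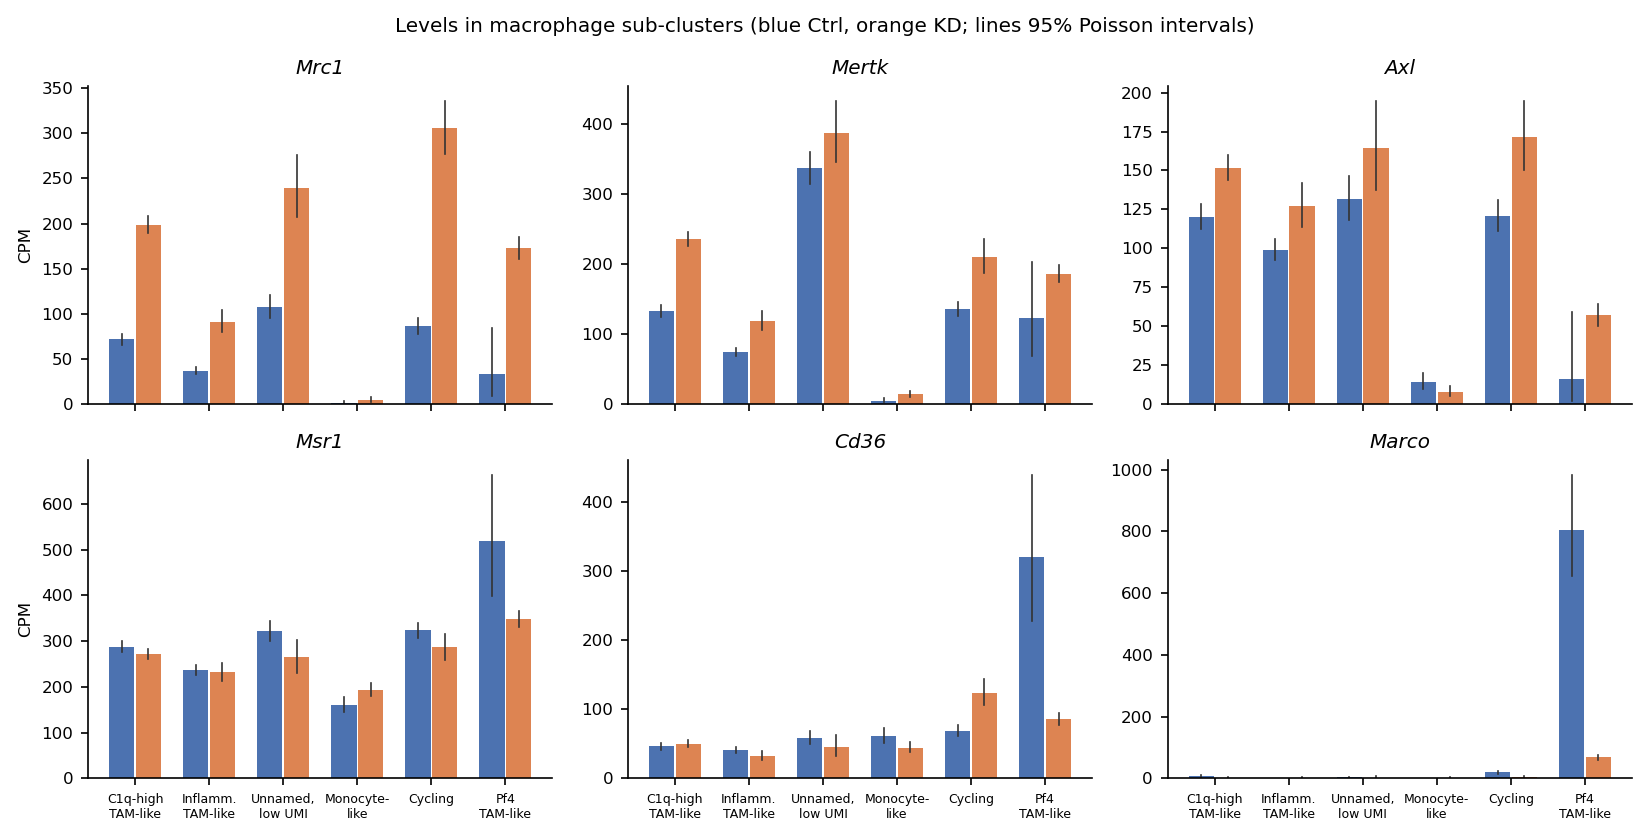
Levels of 6 genes (CPM, bars from 0, with 95% Poisson intervals as lines) in 6 macrophage sub-clusters of the Ctrl (blue) and KD (orange) libraries. Mrc1 and Mertk are higher in KD in the 5 sub-clusters with at least 50 cells in each library. The Pf4 TAM-like sub-cluster has 16 Ctrl cells, and its Ctrl bar for Marco (805 CPM) rests on 98 UMIs.

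Of the receptors for Gas6, Mertk (ENSMUSG00000014361) was higher in KD macrophages. It had 3243 UMIs in Ctrl (123 CPM) and 4273 in KD (176 CPM), a log2 ratio of 0.51 (0.44 to 0.58) that stayed under 2-fold. Within the sub-clusters the ratio was 0.83 (0.72 to 0.94) in C1q-high TAM-like cells, 0.66 in Inflammatory TAM-like cells, 0.63 in Cycling cells, 0.20 (0.01 to 0.39) in an unnamed sub-cluster of low UMI count led by Cadm1 and Psd3, and 1.51 (0.55 to 2.60) in monocyte-like cells, which held 11 and 49 UMIs. Each of these 5 intervals lay above 0.

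Axl (ENSMUSG00000002602) showed a different picture in the pooled class and within its parts. Over all macrophages it had 2735 UMIs in Ctrl (103.9 CPM) and 2561 in KD (105 CPM), a log2 ratio of 0.02 (-0.06 to 0.10). Within the sub-clusters it was higher in KD in 4 of 5: 0.34 (0.21 to 0.46) in C1q-high TAM-like cells, 0.36 (0.17 to 0.55) in Inflammatory TAM-like cells, 0.32 (0.02 to 0.61) in the unnamed low-UMI cells and 0.50 (0.28 to 0.72) in Cycling cells. Monocyte-like cells went the other way at -0.84 (-1.64 to -0.05), on 31 and 27 UMIs at 14.3 and 7.95 CPM. T cells had 11.6 and 12.0 CPM of Axl, while NK cells had 5.01 and 6.90 CPM and granulocytes 5.49 and 4.14 CPM. Whether the monocyte-like level was background was not tested. The sub-clusters differed in level and in size. Axl reached 57.1 CPM in the 523 KD cells of the Pf4 TAM-like sub-cluster, which had 16 Ctrl cells, against 152 CPM in KD C1q-high TAM-like cells. At the Ctrl makeup of the 5 sub-clusters, which leave out the Pf4 TAM-like cells, the log2 ratio of Axl was 0.37.

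Gas6 itself was scarce in macrophages. It had 39 UMIs in Ctrl and 70 in KD (1.48 and 2.88 CPM), a log2 ratio of 0.96 (0.37 to 1.56). In KD, 12 of the 70 UMIs came from 1 cell and 34.3% from 5 cells. At the Ctrl makeup of sub-clusters the ratio was 0.27, and in the 5 sub-clusters it lay between -0.42 and 0.73 with every interval reaching across 0.

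Cd163 was nearly absent from Ctrl macrophages. It had 2 UMIs in 4090 Ctrl cells and 71 UMIs in 39 of 3099 KD cells (0.076 and 2.92 CPM), a log2 ratio of 5.26 with a wide counting interval of 3.36 to 8.34. The KD UMIs sat mainly in 2 sub-clusters named Pf4 TAM-like from Pf4, Ltc4s, Fcna and Folr2, which held 54 of them (76.1%). These sub-clusters had 17 Ctrl and 576 KD cells, so the gene and the cells came together in the KD library. Outside them Cd163 had 1 UMI in Ctrl and 17 in KD. The Kupffer markers Clec4f, Vsig4, Cd5l, Fabp7 and C6 together were at 6.31 CPM in Ctrl and 33.8 CPM in KD macrophages, and in the larger Pf4 TAM-like sub-cluster at 641 CPM in its 16 Ctrl cells and 118 CPM in its 523 KD cells. Their part in the levels of Cd163 and Marco was not tested.

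Marco had a ratio that turned with the sub-clusters that were counted. Over all macrophages it had 257 UMIs in Ctrl (9.76 CPM) and 376 in KD (15.4 CPM), a log2 ratio of 0.66 (0.43 to 0.90). In C1q-high TAM-like cells it had 52 and 23 UMIs, a ratio of -1.54 (-2.32 to -0.81), and in Cycling cells 92 and 5 UMIs, a ratio of -2.45 (-4.11 to -1.18). Outside the Pf4 TAM-like sub-clusters, which held 86.7% of the KD and 38.1% of the Ctrl UMIs, Marco was lower in KD, with 159 and 50 UMIs and a log2 ratio of -1.24. At the Ctrl makeup it was -1.46. The remaining 3 of the 5 sub-clusters held at most 7 Marco UMIs in a library, with ratios of 1.14, -0.14 and 1.68 and intervals reaching across 0. The pooled direction was thus opposite to that in the C1q-high TAM-like and Cycling sub-clusters and to that at the Ctrl makeup of the 5 sub-clusters.

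The counting intervals of Marco understate its error, because its UMIs were gathered in few cells. In Ctrl macrophages Marco was found in 31 of 4090 cells, 1 cell held 76 of the 257 UMIs, and 5 cells held 70.0%. In KD it was found in 68 of 3099 cells, and 5 cells held 53.5%. All 92 Ctrl UMIs of the Cycling sub-cluster came from 2 cells, and 78.8% of the 52 Ctrl UMIs in C1q-high TAM-like cells came from 4 cells. Neither direction thus rests on more than a small number of Marco-high cells. The same held for Timd4, the phosphatidylserine receptor, with 30 UMIs in Ctrl and 41 in KD macrophages, of which 15 came from 1 KD cell of a sub-cluster led by granulocyte genes.

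**Figure D4:**
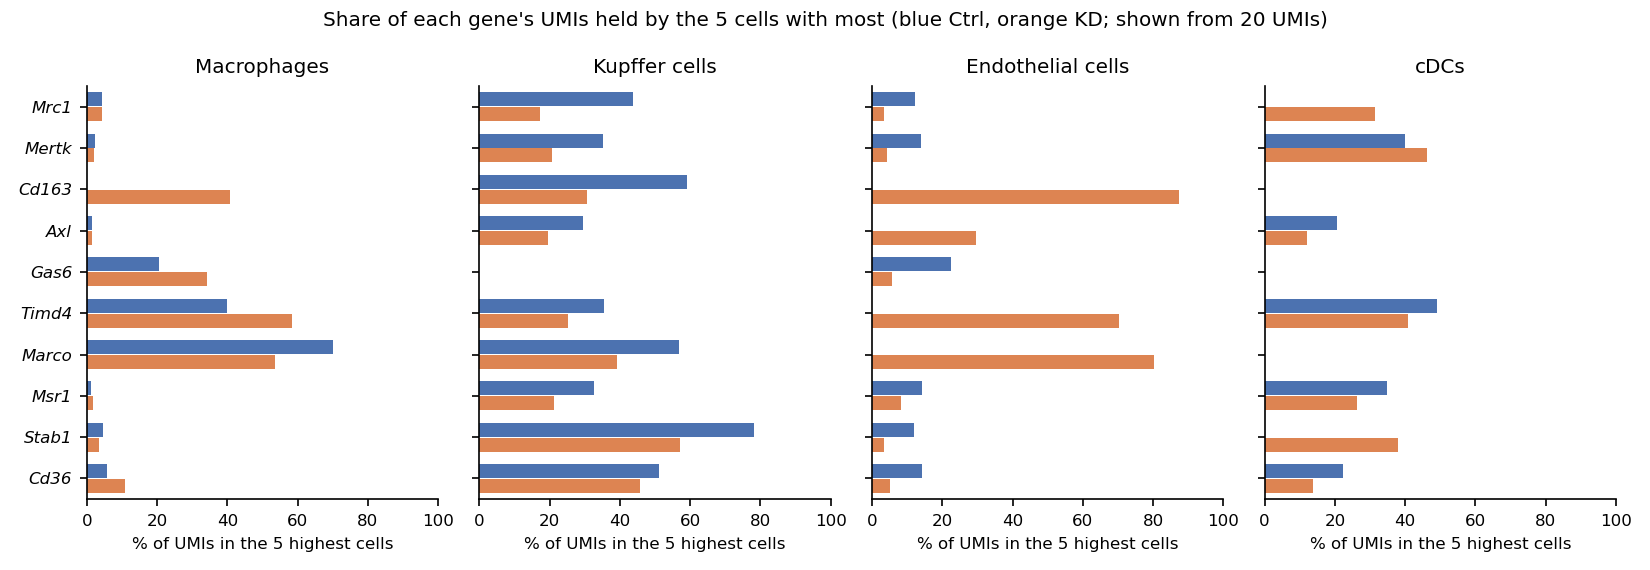
Percent of a gene's UMIs held by the 5 cells with the most UMIs of it, by class, in Ctrl (blue) and KD (orange); bars are drawn where the library had at least 20 UMIs of the gene in the class. Macrophage Mrc1, Mertk, Axl, Msr1 and Stab1 stay under 5%, and macrophage Marco reaches 70.0% in Ctrl and 53.5% in KD.

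Msr1, Stab1 and Cd36 differed in their pooled macrophage level by at most 0.14 on the log2 scale. Msr1, the most abundant of the 10 genes in this class, had 7041 UMIs in Ctrl and 6506 in KD, or 267 CPM in each, a log2 ratio of -0.00 (-0.05 to 0.05). Within the 5 sub-clusters its ratio lay between -0.28 and 0.27. Stab1 had 768 and 746 UMIs, a ratio of 0.07 (-0.08 to 0.22), and was lower in KD in C1q-high TAM-like cells (-0.28, -0.53 to -0.03) and Cycling cells (-0.63, -1.23 to -0.06) and higher in Inflammatory TAM-like cells (0.65, 0.24 to 1.04). Cd36 had 1386 and 1415 UMIs and a pooled ratio of 0.14 (0.03 to 0.25). It was lower in KD in monocyte-like cells (61.7 and 44.5 CPM, -0.47, -0.82 to -0.13) and in Inflammatory TAM-like cells (41.3 and 32.4 CPM, -0.35, -0.72 to -0.00). In Cycling cells the ratio was 0.84 (68.8 and 123 CPM), but 1 KD cell held 50 of the 174 KD UMIs and 5 cells held 62.6%, against 18.3% in Ctrl, so the counting interval of 0.57 to 1.11 understates its error.

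Kupffer cells were few, and the 10 genes were compared over 47 and 80 cells. Marco had 230 UMIs in Ctrl (546 CPM, 478 to 621) and 776 in KD (1259 CPM, 1172 to 1351), a log2 ratio of 1.21 (0.99 to 1.42). It was found in 25 of 47 Ctrl and 51 of 80 KD cells, and 5 cells held 57.0% and 39.3% of the UMIs, with up to 44 and 108 UMIs in a cell. Without the cells that carried 3 UMIs exclusive to another class the ratio was 0.80, with the stricter cell filter 0.92, and with classes taken from single cells 0.91, each under 2-fold in the same direction. Thinned to 1500 UMIs a cell, Marco was detected in 42.9% of 42 Ctrl cells (27.7 to 59.0) and 50.6% of 77 KD cells (39.0 to 62.2), intervals that overlap.

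Msr1, Mertk and Mrc1 were also higher in KD Kupffer cells, under 2-fold. Msr1 had 129 and 306 UMIs (306 and 497 CPM), a log2 ratio of 0.70 (0.40 to 1.01). The ratio of Mertk was 0.46 (0.21 to 0.71) on 196 and 394 UMIs. That of Mrc1 was 0.37 (0.14 to 0.61) on 228 and 432 UMIs, and endothelial markers, of cells with the highest Mrc1 level, stood at 624 and 696 CPM in the same Kupffer cells, with 3 of the 10 markers at 0 in Ctrl and 0 of 10 in KD. Whether endothelial RNA contributed was not tested.

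The other receptors of Kupffer cells did not differ beyond counting error. Timd4 had 186 and 251 UMIs, a log2 ratio of -0.12 (-0.40 to 0.17). Axl was at -0.06 (-0.38 to 0.26), Cd36 at -0.17 (-0.59 to 0.24) and Cd163 at 0.40 (-0.04 to 0.85), with intervals that allow a difference of either direction. Gas6 (5 and 6 UMIs) and Stab1 (23 and 21 UMIs) were under the minimum.

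The endothelial cells carried the markers of liver sinusoidal endothelium such as Clec4g and Oit3 among their list, which summed to 10120.1 CPM in Ctrl and 10682 CPM in KD. Ptprc, which encodes CD45, stood there at 95.9 and 121 CPM against 572 and 646 CPM in macrophages, so these cells had passed an enrichment for a protein whose transcript was low in them. Mertk had 278 UMIs in Ctrl (242 CPM) and 1677 in KD (390.3 CPM), a log2 ratio of 0.69 (0.50 to 0.88). All 11 alternatives kept this direction, and the lowest ratio was 0.11, after thinning to 1500 UMIs a cell. At that depth 39.0% of 123 Ctrl cells (30.4 to 48.2) and 40.6% of 564 KD cells (36.5 to 44.8) had a Mertk UMI. The median depth of these cells was 7107 UMIs in Ctrl and 6234 in KD. Why the ratio was lower after thinning was not tested.

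The receptors with the highest endothelial levels differed by less. Mrc1 had 1308 and 5875 UMIs, a log2 ratio of 0.26 (0.18 to 0.35). Cd36 had 659 and 2905 UMIs, a ratio of 0.23 (0.11 to 0.36). Stab1 (778 and 3153 UMIs, 0.11, -0.00 to 0.23) and Gas6 (138 and 571 UMIs, 0.14, -0.13 to 0.42) had intervals that reached 0. Msr1 alone of the 8 genes with enough UMIs was lower in KD, with 435 UMIs in Ctrl (379 CPM) and 1205 in KD (280.5 CPM), a ratio of -0.44 (-0.59 to -0.27). At equal depth Msr1 was detected in 39.0% of Ctrl cells (30.4 to 48.2) and 29.1% of KD cells (25.4 to 33.0), intervals that overlap, and its ratio was -0.48. Of 11 alternatives, 10 kept this direction. Without cells with 3 UMIs of other classes' markers, which left 15 Ctrl and 38 KD cells, the ratio was 0.85.

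Marco, Cd163 and Timd4 were higher in KD endothelial cells, together with Kupffer markers. Marco had 5 and 76 UMIs (4.36 and 17.7 CPM), a log2 ratio of 2.02 (0.74 to 3.68), Cd163 had 1 and 32 UMIs (3.09, 0.51 to 8.44), and Timd4 had 0 and 27 UMIs, at least 2.40-fold higher in KD when 3 counts are taken for Ctrl. The 5 Kupffer markers summed to 35 UMIs in Ctrl (30.5 CPM) and 609 in KD (142 CPM), and all 5 were detected in both libraries. Few cells carried these UMIs. In KD, 5 cells held 80.3% of the Marco UMIs, 87.5% of the Cd163 UMIs and 70.4% of the Timd4 UMIs. Without the cells that carried 3 UMIs exclusive to another class, Marco no longer reached 50 UMIs in endothelial cells.

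Among dendritic cells, cDCs had low levels of most of these genes. Mrc1 had 18 UMIs in Ctrl (6.46 CPM, 3.83 to 10.2) and 127 in KD (24.4 CPM, 20.3 to 29.0), a log2 ratio of 1.92 (1.20 to 2.72). Of the KD UMIs, 87 came from an unnamed sub-cluster whose leading genes included Lpl, Lyz2, Fn1, S100a8 and S100a9, where Mrc1 stood at 14.0 CPM in 94 Ctrl cells and 70.1 CPM in 153 KD cells (2.33, 1.28 to 3.58). The cDC2-like sub-cluster had 5 and 26 UMIs (1.31, -0.09 to 3.05), and cDC1-like cells had 1 in each library. The result depended on which cells were counted as cDCs. With classes taken from single cells by the largest share of markers the ratio was -0.29, with the most markers 0.11, and with each cell weighted equally 0.91. After thinning, 1.11% of 361 Ctrl cells (0.303 to 2.81) and 2.80% of 571 KD cells (1.61 to 4.51) had a Mrc1 UMI, above the 0.231% and 0.574% of T cells.

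Msr1 was lower in KD cDCs, with 63 UMIs in Ctrl (22.6 CPM) and 53 in KD (10.2 CPM), a log2 ratio of -1.15 (-1.71 to -0.60). Granulocytes, a background class for free RNA, had a similar ratio of -1.05 (-1.76 to -0.31) at 14.3 and 6.90 CPM. The lower level was thus not particular to cDCs, and the part of free RNA in it was not tested. A sub-cluster of low UMI count led by Ccl8, Apoe and C1q genes, with 79 Ctrl and 19 KD cells, had Msr1 among its 10 leading genes and held 14 of the Ctrl UMIs. Without it the ratio was -0.98, just under 2-fold. At resolution 1.0 it was -0.88 and with the stricter cell filter -0.69. Among the 3 sub-clusters with at least 50 cells in each library, the interval lay below 0 in the Lpl-led one (32 and 31 UMIs, -1.16, -1.92 to -0.40). The cDC2-like cells, with 10 and 12 UMIs, were at -0.81 (-2.14 to 0.56), and cDC1-like cells had 1 UMI in each library.

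Timd4, which is expressed by Kupffer cells and by a part of dendritic cells, was found in cDC2-like cells. There it had 75 UMIs in Ctrl (87.6 CPM) and 69 in KD (38.4 CPM), a log2 ratio of -1.19 (-1.68 to -0.70). Over all cDCs the ratio was -0.64 (-1.01 to -0.25) on 108 and 130 UMIs, 5 cells held 49.1% and 40.8% of them, and the direction turned with classes taken from single cells (0.65 and 0.62). Cd36 was highest in cDC1-like cells, at 134 CPM in Ctrl and 162 CPM in KD (0.27, -0.17 to 0.72). In the Lpl-led sub-cluster Cd36 stood at 47.2 CPM in Ctrl and 92.7 CPM in KD (0.97, 0.36 to 1.64) and Axl at 52.4 and 98.3 CPM (0.91, 0.32 to 1.53), so Mrc1, Cd36 and Axl were each higher in KD in these cells, while Msr1 was lower (-1.16) and Timd4 was at -0.96 (-1.98 to 0.08). Granulocyte markers stood at 150.3 CPM in Ctrl and 1659.9 CPM in KD in the same cells, and their part in these values was not tested. Over all cDCs, Axl was at 0.31 (-0.07 to 0.70) and Mertk at 0.13 (-0.67 to 0.98).

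In pDCs the counts were small. Mrc1 had 0 UMIs in 84 Ctrl cells and 19 in 73 KD cells (40.8 CPM in KD, 24.5 to 63.7), at least 6.80-fold higher in KD when 3 counts are taken for Ctrl. Mertk had 2 and 10 UMIs (3.99 and 21.5 CPM), and both KD levels lay above those of KD T cells, at 5.29 and 3.32 CPM. The KD UMIs of Mrc1 lay in 5 of the 73 cells and those of Mertk in 2. Both levels thus rest on few cells, and their counting intervals understate the error. The other 8 genes had at most 7 UMIs in a library. At least 3 UMIs exclusive to another class were found in 16.7% of Ctrl and 30.1% of KD pDCs.

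Depth differed between the libraries, with a median of 5624 UMIs in Ctrl and 7466 in KD macrophages and of 6602 and 5566 in T cells. The shares of cells with a UMI were therefore read after thinning to 1500 UMIs. Mrc1 was found in 5.97% of 3833 Ctrl macrophages (5.24 to 6.77) and 14.6% of 2960 KD macrophages (13.3 to 15.9), and unthinned in 17.3% and 35.7%. In T cells, a background class, the thinned share of Mrc1 was 0.231% and 0.574%, and unthinned 1.15% and 3.03%. Mertk was found in 14.3% (13.2 to 15.4) and 20.03% (18.6 to 21.5) of thinned macrophages, and in 0.362% and 0.383% of T cells. Both receptors were thus detected in more KD macrophages at equal depth, by more than counting error. The shares of Axl (13.0% and 14.0%), Msr1 (30.1% and 29.2%), Stab1 (4.28% and 4.05%) and Cd36 (6.16% and 5.81%) had overlapping intervals. Cd163 was found in 0 of 3833 Ctrl macrophages, which allows a share of up to 0.0783% when 3 counts are taken, and in 0.405% of KD macrophages (0.210 to 0.707).

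**Figure D5:**
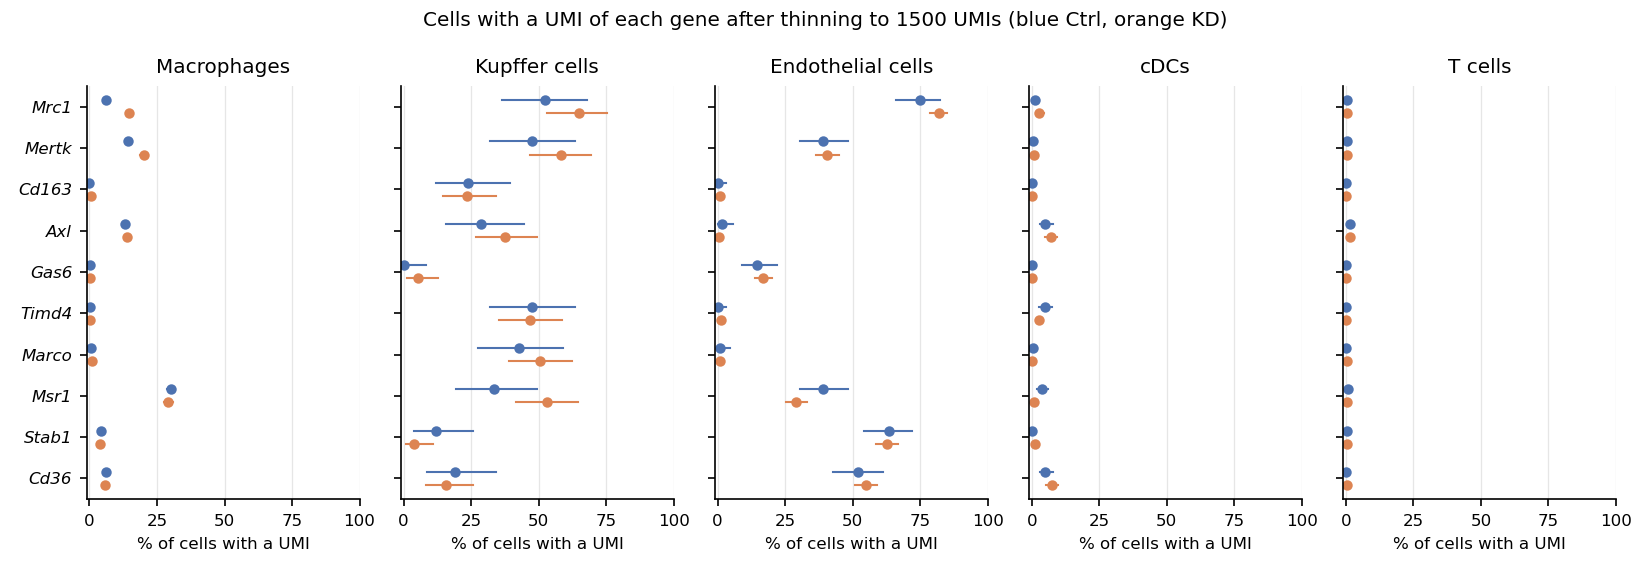
Percent of cells with at least 1 UMI of each gene after thinning each cell to 1500 UMIs, in 5 classes of the Ctrl (blue) and KD (orange) libraries, with 95% Clopper-Pearson intervals (lines). In macrophages Mrc1 (5.97% and 14.6%) and Mertk (14.3% and 20.03%) separate between the libraries. The shares in T cells, a background class, are at most 1.66%. Msr1 reaches 2.45% in Ctrl granulocytes and 2.5% in Ctrl B cells, which are not drawn.

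A list of 58 further genes of efferocytosis and scavenging, chosen with earlier results of these data known, was read in the same way. In macrophages 54 had enough UMIs, of which 6 were at least 2-fold higher in KD and 0 lower, against 2.59% and 2.9% of all genes. Their median log2 ratio was 0.31 beside -0.03 of all genes. The 4 with the largest ratios were Lyve1, a hyaluronan receptor (7 and 75 UMIs, 3.53, 2.42 to 4.90), Stab2, a phosphatidylserine and hyaluronan receptor (14 and 67 UMIs, 2.37, 1.53 to 3.32), Colec12, a scavenger receptor (18 and 72 UMIs, 2.11), and the fatty acid carrier Fabp4 (174 and 467 UMIs, 1.54, 1.28 to 1.80). Lyve1, Stab2 and Colec12 passed the UMI minimum only through KD. Their calls are included in the count of 6 and carry no weight of their own. Lyve1 and Stab2 are also expressed by sinusoidal endothelium. The 10 endothelial markers together stood at 225 CPM in Ctrl and 111 CPM in KD macrophages. In Ctrl this sum was 252 CPM in C1q-high TAM-like and 59.9 CPM in monocyte-like cells. It thus varied with the kind of macrophage and cannot by itself give the amount of endothelial RNA. In T cells the same sum was higher in KD, at 50.8 CPM in Ctrl and 75.6 CPM in KD. The part of endothelial RNA in these ratios was not tested. By role, the bridging and other ligands had a median of 0.91 over 5 genes, the other phosphatidylserine receptors 0.38 over 10, lipid handling 0.38 over 11, engulfment genes 0.17 over 8, and regulators such as Nr1h3 and Pparg -0.01 over 9.

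In the other classes the list differed less evenly. Kupffer cells had 2 of 39 genes past 2-fold upward, the immunoreceptors Cd300lb (12 and 52 UMIs, 1.57) and Cd300lf (40 and 127 UMIs, 1.12), and 0 downward. Cd300lb passed the UMI minimum only through KD, so its call carries no weight of its own. Of all genes, 2.47% were past it upward and 2.62% downward. The median was 0.03, beside -0.02 of all genes. Endothelial cells had 6 of 50 upward and 1 downward, against 2.97% and 2.37% of all genes, with a median of 0.25 beside -0.02. The largest ratios there were those of Thbs1 (2.08), Itgam (1.75), Cd300lf (1.66) and Colec12 (1.30), and the oxidized-lipoprotein receptor Olr1 was lower (46 and 78 UMIs, -1.14). Itgam and Cd300lf are genes of myeloid cells, and the granulocyte markers differed in these cells as given above. In cDCs 9 of 46 were past 2-fold upward and 1 downward, against 1.82% and 1.15% of all genes, with a median of 0.22 beside -0.00. The largest were the cholesterol exporter Abca1 (10 and 76 UMIs, 2.02), Fabp4 (1.79), the transcriptional regulator Id3 (324 and 1954 UMIs, 1.69, 1.52 to 1.86) and Thbs1 (1.61). Abca1 also passed the UMI minimum only through KD, and its call is included in the count of 9. The Fc receptor gene Fcgr4 was lower (318 and 284 UMIs, -1.07, -1.30 to -0.83).

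The genes with the most similar pattern were ranked by Pearson correlation of log2(CPM + 1) over 20 profiles, which were 10 named classes in each of the 2 libraries and thus shared library, depth and free RNA. Among 13382 genes, Mrc1 was closest to Tfec (0.957), Selenop (0.924) and 2610203C22Rik (0.921). Mertk was closest to Sash1 (0.971), Fmn1 (0.969) and Idh1 (0.943), and Axl to 4930455G09Rik (0.953), Lpar1 (0.949) and Ripk3 (0.943). Gas6 was followed by Mb21d2 (0.936), Nfia (0.934) and Pttg1ip (0.932). The scavenger receptor Msr1 was closest to Slc7a8 (0.957), Lgmn (0.937) and Lamp1 (0.933), of which Lgmn and Lamp1 encode lysosomal proteins. Stab1 lay near Cracr2b (0.942), Smad6 (0.936) and Ccdc152 (0.932), and Cd36 near Kcnk6 (0.936), Dusp3 (0.922) and Fcgrt (0.908).

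Cd163 and Marco were close to genes on the Kupffer marker list. Cd163 was closest to Folr2 (0.931), C6 (0.926) and Vsig4 (0.919), and Marco to Adamdec1 (0.946), Spic (0.944) and Fabp7 (0.929). Timd4 was less close to any gene, with Adgrl3 (0.887), Ank2 (0.884) and Cd207 (0.874) first. Among the 10 genes themselves the highest coefficients were those of Mrc1 with Mertk (0.918), Stab1 (0.910) and Msr1 (0.899), and of Gas6 with Stab1 (0.898).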

How the data were processed

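The authors prepared droplet-based 3' single-cell libraries and made the count matrices with Cell Ranger 7.1.0. The deposited matrices hold raw UMI counts for each gene in each cell barcode. The submitters' processing notes also name GRCm39, Seurat 5.1.0 and R 4.4.1. The matrices held barcodes, genes and counts and no cell annotation, so classes were rebuilt and may differ from those of the study.

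Of 21359 cells, 19999 passed limits of 200 to 6000 genes, 30000 UMIs and 10% of UMIs from mitochondrial genes, and no doublet caller was run. Log-normalization was done with Seurat 5.3.0 in R 4.3.3. The 2000 variable genes without the 10 genes and the 58 pathway genes, 20 principal components, 20 neighbours and resolution 0.5 gave 17 clusters. Macrophages and cDCs were clustered again in the same way. A name needed 3 markers of a list with a log2 fold of at least 1 (0.5 in sub-clusters) in at least 10% of cells, and went to the class with the largest share of its list. That last rule was set after the clusters had been seen.

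UMIs were summed per class and library and scaled to CPM. The design gave 1 library per group, so there was no test. Exact Poisson, Clopper-Pearson and conditional binomial 95% intervals cover counting error only. Log2 ratios were read against a 2-fold limit among genes with at least 50 UMIs over both libraries. Shares of cells were taken after thinning to 1500 UMIs. A library with 0 UMIs was given a limit of 3 UMIs. TMM factors came from edgeR 4.0.16. The ratio method was tested on simulated data.

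The text names the 10 genes, up to 4 pathway genes per direction and class past 2-fold, and the 3 most similar genes of each of the 10. Genes that mark or lead a cluster are named to say what it is, and Ly9 and Ptprc as the targets of the hairpin and of the enrichment. The genes and lists were chosen with earlier results of these data known. Genome coordinates and sequences were not used.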

Additional observations from a re-analysis of the deposited data

Results flagged for a closer look

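Msr1 had opposite directions in different classes. Its log2 ratio of KD over Ctrl was 0.70 in Kupffer cells, -0.44 in endothelial cells and -1.15 in cDCs, each with an interval that excludes 0 for counting error, while macrophages were at -0.00. Granulocytes, a background class for free RNA, were at -1.05 (-1.76 to -0.31), close to cDCs. With 1 library per group, the difference between the classes was not tested.

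Cells that the filter left out also held UMIs of the 10 genes, 1379 in 602 Ctrl cells and 1721 in 758 KD cells. Marco had 6 UMIs in the Ctrl and 128 in the KD cells left out, Cd163 had 1 and 67, Timd4 had 5 and 32, and Gas6 had 114 and 18.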

How the results depend on the processing

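No paired analysis was possible because each group had 1 library and the labels give no replicate number. Over 355 recomputed log2 ratios of 32 gene and class pairs, 316 kept their direction and 325 their side of the 2-fold limit, and the cause of a shift was not tested unless stated. The ratio of Mrc1 in cDCs turned to -0.29 with classes from single cells by the largest share of markers. The ratio of Mrc1 in macrophages stayed between 1.37 and 1.89 over its 13 alternatives.

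In macrophages, the number of the 10 genes at least 2-fold higher in KD went from 2 to 1 in several settings. This was so without cells with 3 UMIs of other classes' markers, after thinning and with a minimum of 200 UMIs. It was also so with the Ctrl sub-cluster makeup and without sub-clusters of 1 library. In each of these settings fewer genes were counted, and Cd163 fell under the UMI minimum. Without sub-clusters of 1 library the log2 ratio of Cd163 was still 4.51, on 1 and 17 UMIs. The number higher went to 3 with classes from single cells by the most markers (Marco, 1.27) and with TMM scaling (Gas6, 1.00). The number lower went from 0 to 1 with the Ctrl sub-cluster makeup and without sub-clusters of 1 library (Marco), and with classes from single cells by the largest share of markers. In Kupffer cells the number higher went from 1 to 0 with the stricter cell filter, with the largest share of markers and without cells with 3 UMIs exclusive to other classes. Classes from single cells by the most markers, and leaving out cells with 3 UMIs of other classes' markers, left 1 Ctrl and 0 KD Kupffer cells and gave no value. In endothelial cells the number higher went from 1 to 2 with the most markers and with each cell weighted equally, to 3 with a minimum of 10 UMIs, and to 0 after thinning, with a minimum of 200 UMIs, with the largest share of markers and without cells with 3 exclusive UMIs. In cDCs the number higher went from 1 to 0 with both single-cell rules, without cells with 3 UMIs of other classes' markers, after thinning, with equal weights and with a minimum of 200 UMIs, and to 2 with a minimum of 10 UMIs. The number lower went from 1 to 0 with the stricter cell filter, at resolution 1.0, with both single-cell rules, without cells with 3 UMIs of other classes' markers, after thinning, with a minimum of 200 UMIs and without the sub-cluster led by macrophage genes. After thinning (Mrc1 1.51, Msr1 -2.16) and with a minimum of 200 UMIs these genes were still past 2-fold and fell under the UMI minimum, as Msr1 did (-1.51) without cells with 3 UMIs of other classes' markers. The largest-share rule, the exclusive UMIs and that sub-cluster were chosen after seeing the data. TMM scaling shifted ratios by less than 0.1.

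With 1 library per group, variation between libraries and mice is not covered by any interval. The 47 and 80 Kupffer cells and the low counts in pDCs limit precision, and Marco, Timd4 and Cd163 rest on few cells outside them.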
